A study of Mus musculus with 4 samples.

Results

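The genes described here copy DNA and supply its building blocks, a list of 43 genes chosen by symbol. A probe set that the array annotation pairs with a single gene was found for 42 of them, and 41 had a signal above 100 in at least 1 population, among 9468 such genes of 18194 with a probe set. Chaf1a had no such probe set, and the probe set used for Tyms stayed at 100 or below. Each gene was read by its probe set of highest average log2 signal over the populations, so the choice did not depend on how the gene differed between populations.

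The arrays came from mouse ES cells of the Runx1 Venus/+ line, in which the fluorescent protein Venus is knocked into 1 of the 2 Runx1 alleles, so every population was heterozygous for Runx1. The cells were differentiated on OP9 stromal cells and sorted at day 6, and the populations are numbered by increasing haematopoietic commitment. Population 1 was Runx1-Venus negative, VE-cadherin positive and Flk1 positive, and population 2 was Runx1-Venus positive, VE-cadherin positive and CD41 negative. Population 3 was Runx1-Venus positive, VE-cadherin positive and CD41 positive, and population 4 was Runx1-Venus positive, VE-cadherin negative and CD41 positive. Each population was hybridised to 1 Affymetrix mouse expression array, so a difference between them has no replicate error and no test here, and the values below describe these 4 arrays. A further sample set of the same populations on Agilent arrays, which the study's methods mention, was not analysed here. All populations derive from 1 ES cell line.

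DNA is copied once per cell cycle from origins. In late mitosis and G1 the origin recognition complex, Cdc6 and Cdt1 load the ring of Mcm2 to Mcm7 onto DNA, and geminin (Gmnn) blocks reloading once S phase has begun. Cdc45 and the GINS complex then turn the ring into an active helicase, polymerase alpha and primase start each strand, and polymerases delta and epsilon extend it while held by the sliding clamp Pcna. Ribonucleotide reductase, thymidylate synthase and thymidine kinase supply deoxynucleotides. In proliferating cells much of this set is transcribed towards S phase by E2F factors.

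E2F factors bind a short GC-rich motif, and its letters were looked for in the promoters of the listed genes because this property does not use the arrays. Promoters were taken as 250 bases before to 50 bases after each start in the RefSeq annotation of GRCm38.p6, which held 41 promoters of 35 of the 43 genes. One of the motif forms TTTCCCGC, TTTGGCGC, TTTCGCGC or TTTGCCGC was present on either strand in 13 of these 41 promoters (31.7%), against 2.26% of all 32851 promoters of that annotation and 4.25% of the promoters of genes measured on the arrays. A match was held by 7 of the 10 licensing genes that had a promoter and by 6 of the 25 genes of other roles. One window of 30 bases is shown for each of these 7 licensing genes, 5′ to 3′ on the strand of the gene, with the motif form or its reverse complement in capitals. The windows lie at chr4:108579416-108579445 (plus strand) for Orc1, chr11:98908002-98908031 (plus) for Cdc6, chr8:122568035-122568064 (plus) for Cdt1, chr1:20820275-20820304 (minus) for Mcm3, chr8:75109345-75109374 (plus) for Mcm5, chr1:128359734-128359763 (minus) for Mcm6 and chr5:138171849-138171878 (minus) for Mcm7.
Orc1: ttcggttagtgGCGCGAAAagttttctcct
Cdc6: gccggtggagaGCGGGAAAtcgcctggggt
Cdt1: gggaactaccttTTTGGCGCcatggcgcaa
Mcm3: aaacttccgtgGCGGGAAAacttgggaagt
Mcm5: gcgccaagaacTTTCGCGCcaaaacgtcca
Mcm6: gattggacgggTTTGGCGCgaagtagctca
Mcm7: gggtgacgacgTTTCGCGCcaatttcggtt

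The other 6 genes with a match were Gins3, Pola1, Pold1, Pole2, Rfc3 and Lig1. TTTGGCGC and TTTCGCGC can overlap on opposite strands, as they do in Mcm5, and each promoter was counted once. Other motifs were less set apart. CCAAT was found on either strand in 61.0% of the promoters of listed genes, against 37.4% of all promoters, the CHR element TTTGAA in 12.2% against 17.9%, and the Runx motif TGTGGT or TGCGGT in 26.8% against 22.4%. Over promoters of genes measured on the arrays these shares were 37.7% for CCAAT, 11.8% for the CHR element and 20.8% for the Runx motif. A match is a description of letters in the window and not a bound site.

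Replication genes were higher in population 4 than in population 1 without exception among the 41 measured, and all 41 had their highest signal in population 4 and their lowest in population 1. Across all genes measured, 51.8% were highest in population 4 and 45.5% were lowest in population 1. The ratio of population 4 over population 1 had a median of 4.00-fold over the replication genes, against 1.29-fold over all genes. In this comparison 40 of 41 replication genes were at least 2-fold higher, where 22.4% of all genes were, and 20 were at least 4-fold higher, where 4.48% of all genes were. None was 2-fold lower, where 12.9% of all genes were. The exception was Gins3, at least 1.55-fold higher. In population 1 the signal was above 100 in 38 of the 41. Cdc45, Gins3 and Tk1 passed 100 only in later populations and could thus differ upwards alone. Signals below 100 were raised to 100 before each ratio, so any ratio to a raised signal is a minimum, and ratios are compared between genes but signals are not.

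The arrays measure the RNA of a sorted population as a whole, so a larger share of cells in S phase and more RNA of a gene per cell cannot be told apart.

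**Figure D1:**
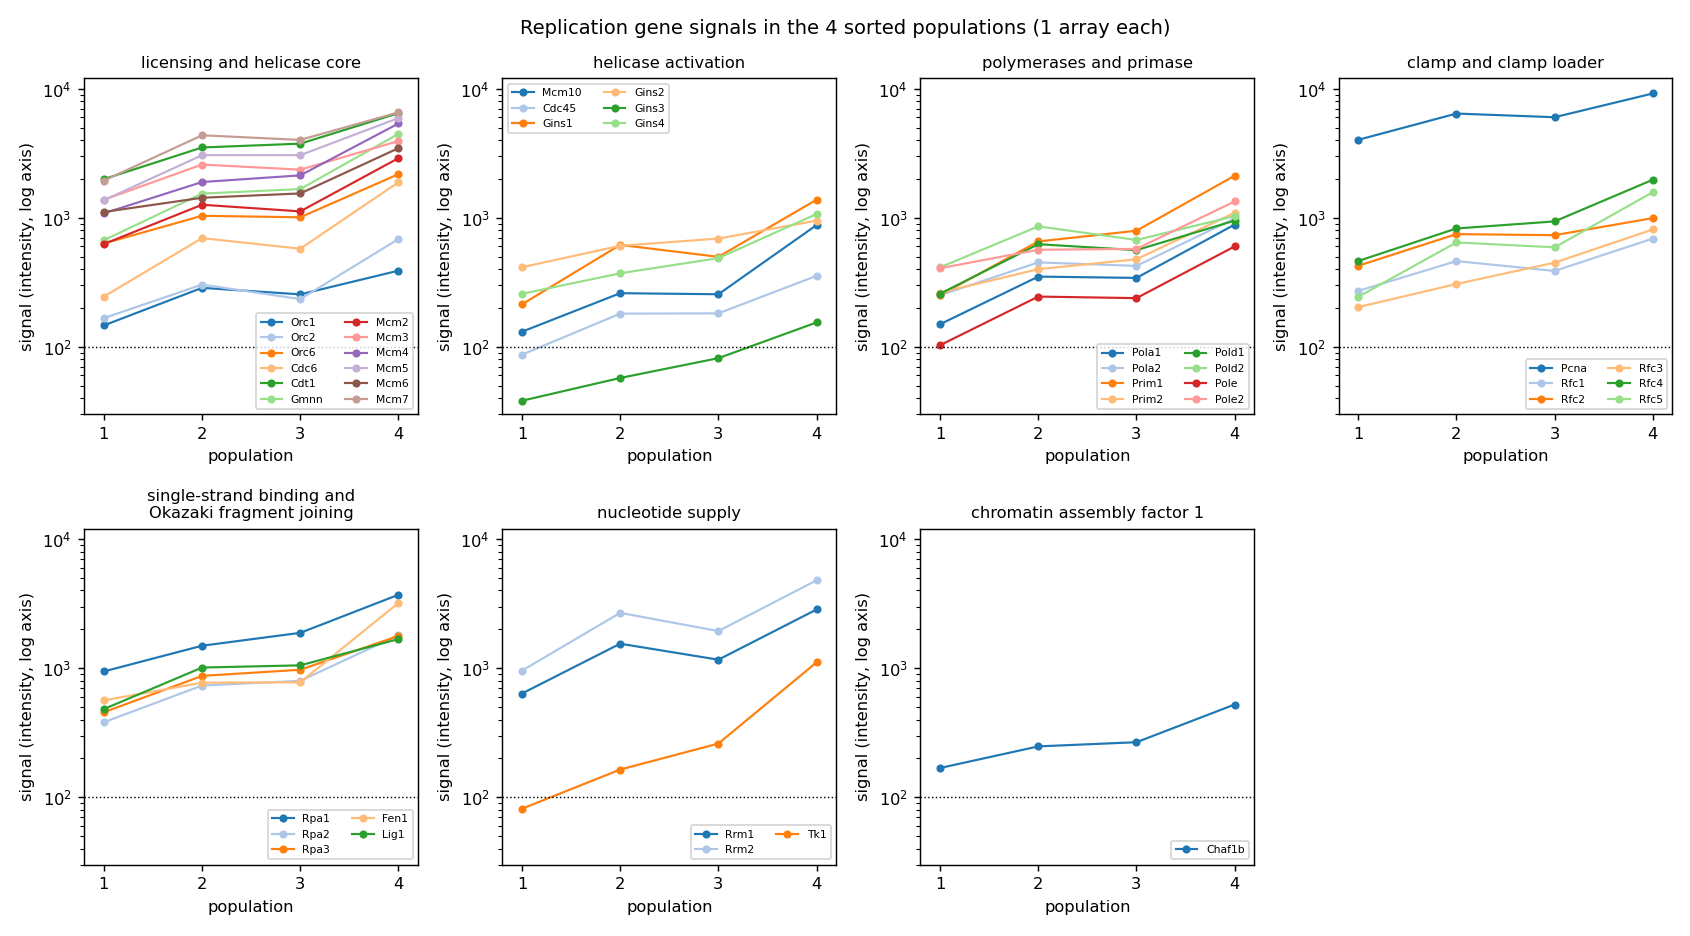
Signals of the 41 measured replication genes (vertical axis, intensity, log scale) in populations 1 to 4 (horizontal axis), with 1 panel per role and 1 line per gene; each point is 1 array and the dotted line marks a signal of 100. Most lines climb between populations 1 and 2, run nearly level to population 3 and climb again to population 4, where all 41 genes have their highest signal.

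Of the origin recognition complex, which marks origins, Orc1 gave signals of 147, 287, 255 and 389 in populations 1 to 4. Its ratio of population 4 over population 1 was 2.65-fold, the lowest of the 12 licensing and helicase core genes. Orc2 gave 167, 304, 234 and 684, and Orc6 gave 632, 1036, 1008 and 2176. All 3 subunits shared a dip or a level stretch at population 3 and stood highest in population 4.

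Cdc6, the ATPase that brings the helicase ring to the origin complex, had the highest ratio of the licensing genes. Its signals were 245, 695, 575 and 1885 in populations 1 to 4, so that it was 7.69-fold higher in population 4 than in population 1. Cdt1, its partner in loading, gave 1992, 3502, 3748 and 6462. Gmnn, the inhibitor of Cdt1, gave 670, 1538, 1669 and 4462. The inhibitor's ratio of population 4 over population 1 was thus 6.66-fold and that of Cdt1 3.24-fold. Another probe set of Cdt1 gave 527, 1106, 1260 and 2483. Its log2 ratio was 2.24 in place of 1.70, against 2.74 for Gmnn.

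The Mcm2 to Mcm7 subunits of the ring lay close together, with ratios of population 4 over population 1 between 2.85-fold for Mcm3 and 4.96-fold for Mcm4. Mcm2 gave 626, 1261, 1120 and 2894 in populations 1 to 4. Mcm3 gave 1379, 2583, 2358 and 3927. Mcm4 gave 1083, 1891, 2129 and 5372. The subunits differed in where they gained. Mcm5, at 1367, 3054, 3053 and 5919, and Mcm7, at 1940, 4353, 4009 and 6552, were both over 2-fold higher in population 2 than in population 1. Mcm6 gave 1108, 1429, 1543 and 3460, and was 1.29-fold higher in population 2 than in population 1 and 2.24-fold higher in population 4 than in population 3.

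Among the factors that activate the helicase, Mcm10 had the highest ratio, at 6.70-fold for population 4 over population 1, and gave 131, 260, 256 and 878. Cdc45, a subunit of the active helicase, gave 86.9, 181, 182 and 355, which makes it at least 3.55-fold higher in population 4 against population 1. The GINS subunits form a complex with each other. By the probe sets used, their ratios spread more widely than those of the Mcm ring. The low end of that spread rests on Gins2 and on Gins3, whose ratio is a minimum. Gins1 gave 213, 616, 498 and 1379, and was 6.46-fold higher in population 4 than in population 1. Gins2 gave 414, 606, 690 and 949, a ratio of 2.29-fold. Gins4 gave 257, 371, 486 and 1069, a ratio of 4.15-fold. Gins3 passed the signal limit only in population 4, with 38.2, 57.4, 81.7 and 155, and was the member closest to that limit, while Tyms, at 81.5 in population 4, lay just outside it.

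All 8 polymerase and primase subunits were at least 2-fold higher in population 4 against population 1. Prim1, the catalytic primase subunit, gave 251, 655, 794 and 2118 in populations 1 to 4, and its 8.43-fold ratio of population 4 over population 1 was the highest of this role. Its partner Prim2 gave 263, 400, 477 and 1093. Pola1, the catalytic subunit of polymerase alpha, gave 150, 350, 342 and 886, and its partner Pola2 gave 251, 451, 424 and 988. In both pairs the catalytic subunit had the higher ratio, at 8.43-fold against 4.16-fold for the primases and 5.92-fold against 3.93-fold for polymerase alpha.

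The same order held in the polymerases that extend the strands. Pole, the catalytic subunit of polymerase epsilon, gave 103, 245, 238 and 600 in populations 1 to 4, a ratio of 5.82-fold between population 4 and population 1. Its subunit Pole2 gave 406, 565, 574 and 1338, a ratio of 3.29-fold. Pold1, the catalytic subunit of polymerase delta, gave 258, 624, 561 and 950, a ratio of 3.68-fold. Pold2 gave 413, 858, 673 and 1029 and had the lowest ratio of this role, 2.49-fold. For Pold1 and Pold2 the larger gain was between populations 1 and 2, and for Pole2 it was between populations 3 and 4.

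Pcna, the sliding clamp, gave 4014, 6412, 6008 and 9176 in populations 1 to 4. At 2.29-fold it had the lowest ratio of population 4 over population 1 after Gins3. The clamp loader, which opens Pcna, has the subunits Rfc1 to Rfc5. Rfc5 gave 244, 644, 590 and 1578 and was 6.46-fold higher in population 4 than in population 1. Rfc2 gave 424, 747, 733 and 994, a ratio of 2.34-fold. Rfc1, at 271, 462, 387 and 690, and Rfc4, at 462, 826, 937 and 1970, lay between these. Rfc3 gave 203, 307, 449 and 812 and was 1.46-fold higher in population 3 than in population 2, a step at which most members were level. Another probe set of Rfc3 gave 167, 336, 382 and 904, with a log2 ratio of 0.18 at that step in place of 0.55.

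The subunits of replication protein A, which coats single-stranded DNA, had similar ratios of population 4 over population 1, at 3.93-fold for Rpa1, 4.73-fold for Rpa2 and 3.90-fold for Rpa3. Rpa1 gave 944, 1493, 1879 and 3706 in populations 1 to 4. Rpa2 gave 381, 734, 798 and 1803, and Rpa3 gave 456, 872, 973 and 1778. All 3 were higher at every step. Fen1, the nuclease that trims Okazaki fragments, gave 563, 772, 777 and 3202. It was 4.12-fold higher in population 4 than in population 3 and only 1.37-fold higher in population 2 than in population 1, with 81.5% of its log2 gain at the last step. Another probe set of Fen1 gave 305, 559, 470 and 2118, with more of its gain, a log2 ratio of 0.87, at the step to population 2. Lig1, the ligase that joins the trimmed fragments, gave 482, 1012, 1052 and 1681, with its larger gain, 2.10-fold, between populations 1 and 2.

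Nucleotide supply genes had the highest median ratio of population 4 over population 1 of any role, 5.01-fold, over only 3 measured genes. Rrm1, the large subunit of ribonucleotide reductase, gave 637, 1548, 1164 and 2849 in populations 1 to 4, and the small subunit Rrm2 gave 958, 2683, 1939 and 4797. By these probe sets both fell back in population 3 relative to population 2, by 0.41 and 0.47 on the log2 scale. Rrm2 was the member with the lowest ratio at that step. Other probe sets above 100 gave log2 ratios of 0.06 for Rrm1 and of -0.08 and -0.57 for Rrm2. Ratios at that step also move with the scaling of the arrays. Tk1, the S phase thymidine kinase that salvages thymidine, gave 81.6, 164, 261 and 1110. It was at least 11.1-fold higher in population 4 against population 1, the highest ratio of all members, and the only member at least 1.5-fold higher in population 3 against population 2, where 14.7% of all genes were. For Tyms, thymidylate synthase, the single-gene probe set used gave 18.9, 51.4, 59.5 and 81.5 and entered no count. Another probe set of Tyms alone gave 120.8 in population 4 and less than 100 elsewhere. Chaf1b, a subunit of the chromatin assembly factor that places histones on new DNA, gave 169, 248, 267 and 523, and its partner Chaf1a was not measured.

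Population by population, on the scale as deposited, the gain came in 2 separate steps. In population 2, 15 of 41 replication genes were at least 2-fold higher than in population 1, where 2.92% of all genes were, and the median ratio was 1.82-fold. Cdc6, Rrm2 and Gins1 stood highest at this step, with ratios of 2.84-fold, 2.80-fold and 2.89-fold. None was 2-fold lower, where 4.19% of all genes were. The lower limit of 1.5-fold was passed by 34 of 41, where 11% of all genes passed it.

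Between populations 3 and 2 the replication genes were level on the scale as deposited. None was at least 2-fold higher, where 3.11% of all genes were, or 2-fold lower, where 0.253% were, and the median ratio was 1.00-fold. All genes measured had a log2 median of 0.22 at this step, so relative to it the replication genes were lower by 0.22. By the signals before any was raised, 20 of 41 were higher in population 3 than in population 2, where 81% of all genes were. The highest was Tk1, at 1.59-fold, and the lowest Rrm2. At this step CD41 appears on the cells and Runx1, at 1297 in population 3 against 358 in population 2, was 3.62-fold higher. Its part in the result was not tested.

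In population 4, 23 of 41 replication genes were at least 2-fold higher than in population 3, where 7.94% of all genes were, and the median ratio was 2.20-fold against a log2 median of 0.06 for all genes. None was 2-fold lower, where 12.2% of all genes were. Tk1 and Fen1 were over 4-fold higher, where 1.33% of all genes were, followed by Mcm10 at 3.44-fold, Cdc6 at 3.28-fold and Orc2 at 2.92-fold. The 1.5-fold limit was passed by 39 of 41, where 20.1% of all genes passed it. By the probe sets used, the smallest ratios were those of Rfc2 and Gins2, 1.36-fold and 1.38-fold. On the log2 scale another probe set of Gins2 gave 1.12 in place of 0.46. Other probe sets of Rfc2 gave 0.88 and 1.15 in place of 0.44.

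**Figure D2:**
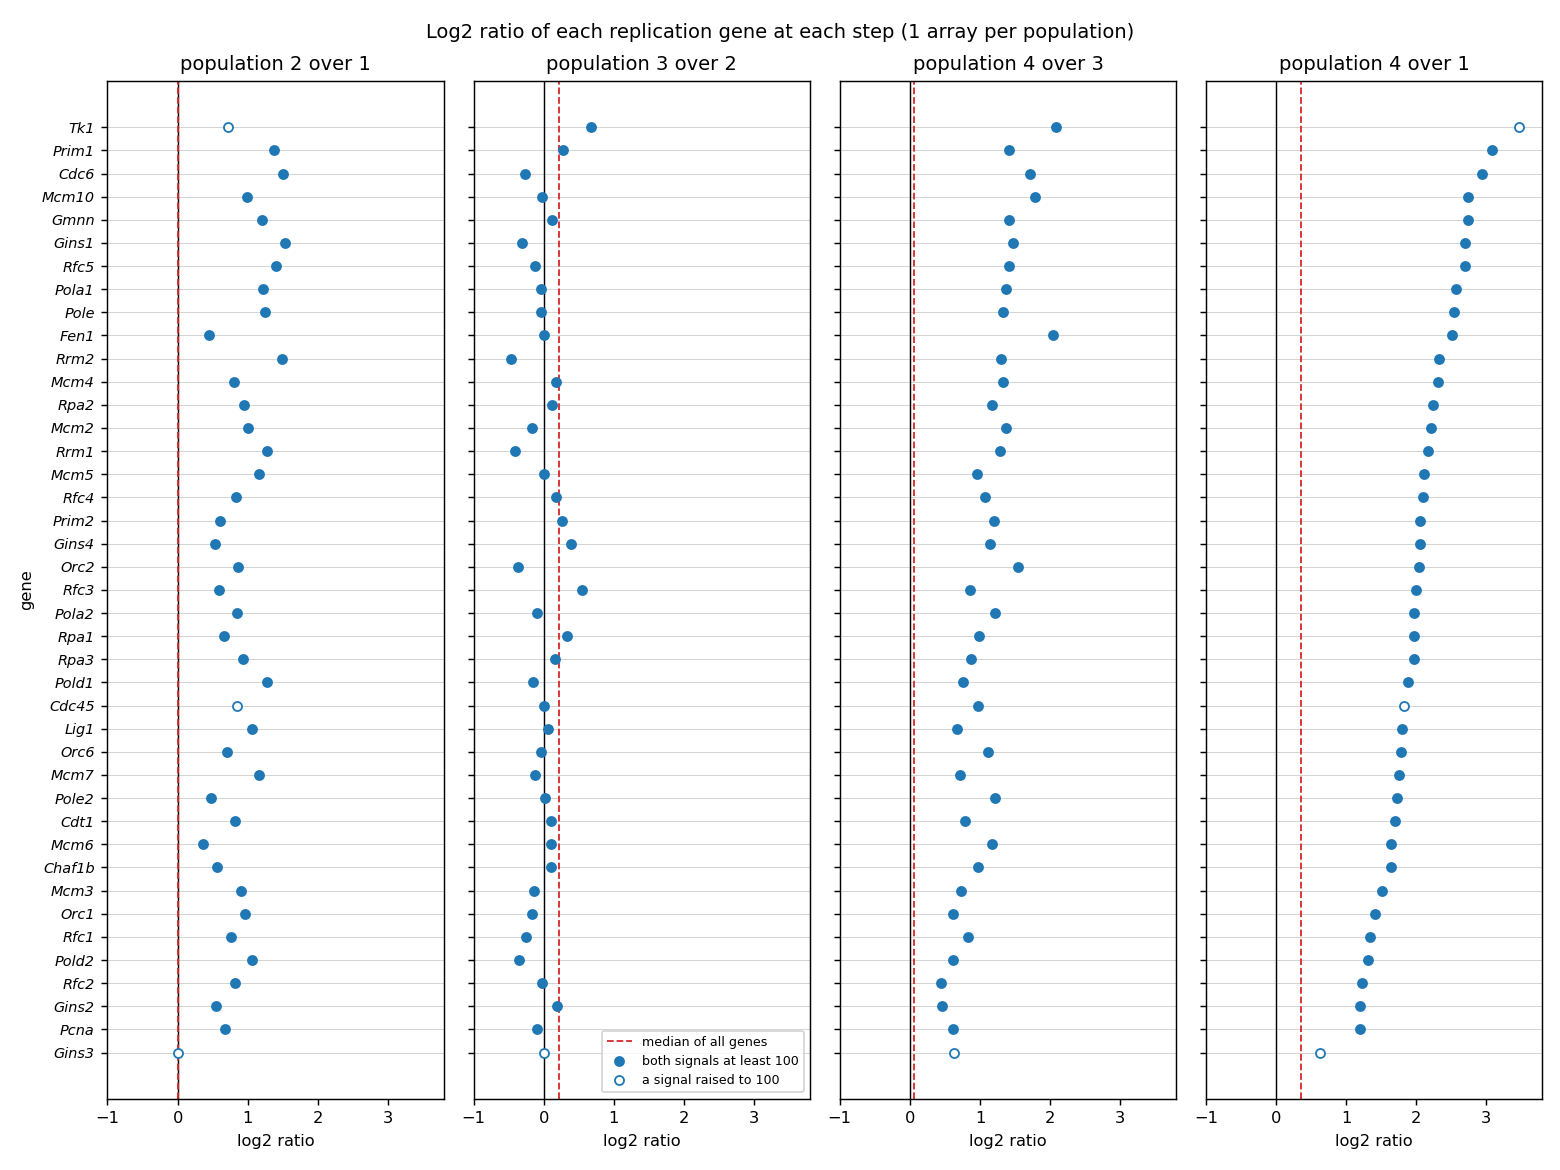
Log2 ratio (horizontal axes) of each measured replication gene (rows, ordered by the ratio of population 4 over population 1) at each step and for population 4 over population 1, from 1 array per population; filled circles have both signals at 100 or above, open circles have a signal raised to 100, and the dashed red line is the median of all 9468 genes. Circles lie right of the dashed line at the outer steps, except Gins3 at the step to population 2, and on both sides of 0 in the panel of population 3 over population 2.

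The 2-step shape was shared by most members. On the scale as deposited, the middle step was the smallest of the 3 in size in 40 of 41 replication genes. The exception was Gins3, and 37% of all genes had this shape. The count was not made under the other scalings. Scaled on the hybridisation controls, the median log2 ratios of replication genes at the 3 steps were 0.81, 0.35 and 1.14. At both outer steps 33 of 41 were at least 1.5-fold higher as deposited, where 5.53% of all genes were. The others were Mcm6, Gins2, Gins3, Gins4, Pole2, Rfc2, Fen1 and Chaf1b. Membership of this list depends on the probe set. Other probe sets of Mcm6, Gins2 and Fen1 passed this limit at both steps, and others of Orc2, Mcm3 and Rrm1 did not. As a share of the whole log2 ratio of population 4 over population 1, the step to population 2 had a median of 46.0% and the step to population 4 one of 52.9%. A gain at every step was seen in 20 of 41, where 27.9% of all genes had one, but this count turns on the middle step. It was 5, 5, 39 and 3 after centring, quantile normalisation and scaling on the hybridisation and the poly-A controls. The share over all genes under these scalings is not given here. The summed signal of the 41 genes was 24883, 47095, 46190 and 94637 in populations 1 to 4.

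Roles differed little in the ratio of population 4 over population 1. Median log2 ratios were 1.91 for licensing and helicase core, 1.94 for helicase activation, 2.02 for polymerases and primase, 1.67 for clamp and loader, 1.97 for single-strand binding and Okazaki fragment joining and 2.32 for nucleotide supply. The members of 1 role spread more than the roles did, as the clamp and loader ran between 1.19 for Pcna and 2.69 for Rfc5. Genes with an E2F motif in the promoter had a log2 median of 1.76 over 13 measured genes, those with a promoter and no match 2.06 over 20, and those without a promoter in that annotation 2.18 over 8. The genes with a match thus did not stand above the rest in this ratio.

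Other probe sets of the same genes gave the same direction at the outer steps. In 20 members another probe set was above 100 in population 1 already, 27 in all, and 5 more that passed 100 only in a later population were left out, since the raised signals let them differ upwards alone. All 27 were higher in population 4 than in population 1, each by at least 2-fold, and all 27 were higher at both outer steps. Between populations 3 and 2 only 8 of the 27 were higher and 20 had the sign of the probe set used. The median difference between the log2 ratios of 2 probe sets of a gene was 0.28 for population 4 over population 1, and the largest was in Orc2, where another probe set gave 1.37 in place of 2.03.

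Genes around the listed ones were counted in the same way, beside 22.4% of all genes at least 2-fold higher in population 4 against population 1 and 12.9% 2-fold lower. Of 28 other measured factors of the fork and origin, 21 were at least 2-fold higher in population 4 against population 1 and none 2-fold lower, with a log2 median of 1.63. Clspn, which carries the checkpoint signal at stalled forks, was highest with 107, 359, 333 and 1158 in populations 1 to 4. Pold4, a small accessory subunit of polymerase delta, went the other way, with 406, 277, 389 and 264. Its ratio of population 4 over population 1 was 0.65-fold, where Pold1 and Pold2 were 3.68-fold and 2.49-fold.

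Of 27 other nucleotide supply genes, 16 were at least 2-fold higher in population 4 against population 1 and 1 was 2-fold lower, with a log2 median of 1.41. Umps, which makes uridine monophosphate, was highest with 119, 261, 243 and 640 in populations 1 to 4. Impdh1, an enzyme of guanine nucleotide synthesis, was the one that was lower, with 286, 289, 318 and 129. Its signals were level over populations 1 to 3 and lower in population 4 alone.

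Of 19 measured E2F, pocket protein and S phase entry regulators, 13 were at least 2-fold higher in population 4 against population 1 and none 2-fold lower, with a log2 median of 1.23. E2f8, a repressor of the family, had the highest ratio with 135, 282, 232 and 1559 in populations 1 to 4. E2f7, its closest relative, had the lowest with 481, 347, 428 and 322. Of 9 histone chaperones and histone supply genes, 5 were at least 2-fold higher, between Asf1b at a log2 ratio of 2.52 and Rbbp7 at 0.26.

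Mitosis and proliferation genes moved in the same pattern. All 13 measured were at least 2-fold higher in population 4 against population 1, with a log2 median of 2.11, and their median log2 ratios were 1.44, -0.08 and 1.06 for population 2 over 1, population 3 over 2 and population 4 over 3. Mki67, a general marker of cycling cells, gave 836, 2240, 2208 and 5854 in populations 1 to 4. Replication genes had medians of 0.86, 0.00 and 1.14 at the same steps, so the mitosis list gained more at the step to population 2 than at the step to population 4. The 7 housekeeping genes measured had a median of -0.03 for population 4 over population 1 on the log2 scale, but they were not all level. Of them 2 were at least 2-fold higher, Hprt at 1.19 and Tbp at 1.04, and 1 was 2-fold lower, B2m at -1.15.

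**Figure D3:**
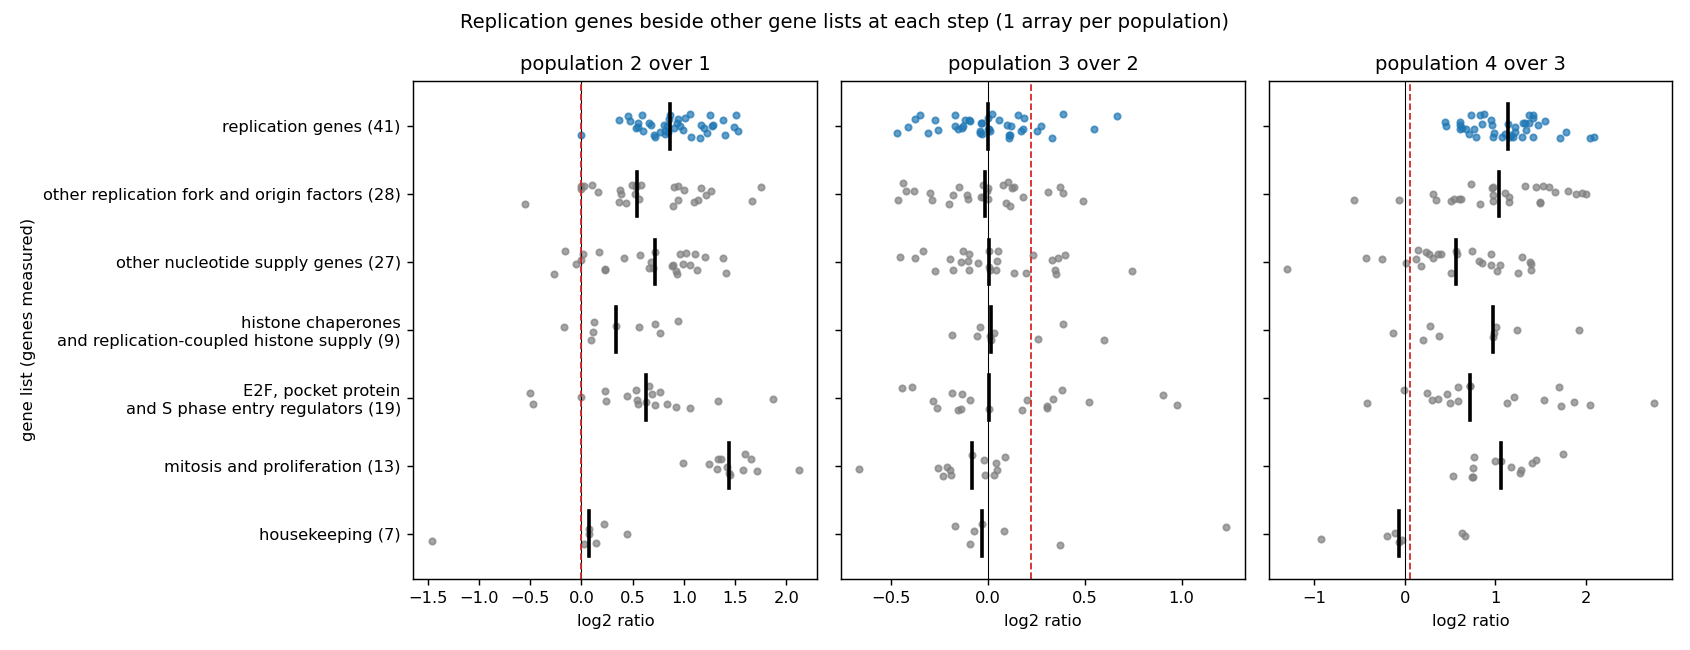
Log2 ratios (horizontal axes) at the 3 steps for the measured genes of 7 lists (rows, number of genes in brackets), 1 point per gene and 1 array per population; black bars are list medians and the dashed red line is the median of all genes measured. Apart from Gins3 at the step to population 2, replication and mitosis genes sit right of the dashed line at the outer steps, and all 7 lists centre near 0 at the step between populations 2 and 3.

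Markers of the sort and of other cell types differed between the populations. Of the sorted markers, Runx1 gave 55.3, 358, 1297 and 2440 in populations 1 to 4, Cdh5 (VE-cadherin) 5683, 3946, 4849 and 40.9, Kdr (Flk1) 5866, 4496, 4835 and 906, and Itga2b (CD41) 667, 1135, 2418 and 1610. The 10 endothelial markers summed to 21858, 13164, 17224 and 2106, and 10, 10, 10 and 5 of them were above 100. The 9 erythroid markers summed to 259, 387, 4955 and 52574, with 0, 1, 5 and 9 above 100. Their sum was thus low where the replication genes made their first gain, in population 2, and highest in population 4, and its part in the result was not tested.

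Markers of stromal cells, the feeder layer of the culture, summed to 3555, 2267, 2013 and 1615 over 12 genes in populations 1 to 4, with 6, 4, 4 and 4 above 100 and with Dcn at 14.8 and Thy1 at 17.6 at their highest. Col1a2, a fibrillar collagen, gave 1988, 1132, 970 and 843, and Col3a1 gave 658, 334, 376 and 251. Both were above 100 in every population and highest in population 1. Pdgfrb, at 250, 271, 159 and 194, and Fbln2, at 152, 186, 150 and 105, were also above 100 throughout but highest in population 2. Col1a1, another collagen of the list, gave 82.5, 71.5, 51.7 and 45.6 and never passed 100. Myeloid markers summed to 301, 430, 983 and 1148 over 8 genes, with 1, 1, 4 and 5 above 100. None of 6 pluripotency markers passed 100 in any population. The ratio of the 3' to the 5' probe sets, a measure of RNA integrity, lay between 0.847 and 0.901 for Gapdh and between 1.28 and 1.39 for Actb. The part of these markers in the replication gene result was not tested.

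Arrays were used on the scale as deposited, and the level step between populations 2 and 3 depends on it. Spiked hybridisation controls differed by a mean of -0.37 on the log2 scale between populations 3 and 2, and spiked poly-A controls by 0.40. Scaled on the hybridisation controls, the median log2 ratio of replication genes at this step was 0.35, and scaled on the poly-A controls it was -0.41. With signals below 100 raised, 19 replication genes had a log2 ratio above 0 at this step as deposited, beside 7144 of all 9468 genes. The number of replication genes was 4 after centring, 4 after quantile normalisation, 38 on the hybridisation controls and 2 on the poly-A controls. The median log2 ratio of all genes was -0.007, 0, 0.57 and -0.10 under these 4 scalings, against 0.22 as deposited. The shares of all genes above 0 under these scalings are not given here. The median ratios at the steps to population 2 and to population 4 stayed above 0 under each of these scalings. For population 4 over population 1, the shares of all genes at least 2-fold higher and lower were 22.4% and 12.9% as deposited, 14.4% and 16.0% with each array centred on its median, and 34.6% and 10.2% on the hybridisation controls, and 37, 37, 40 and 40 replication genes were at least 2-fold higher after centring, quantile normalisation and scaling on the hybridisation and the poly-A controls.

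**Figure D4:**
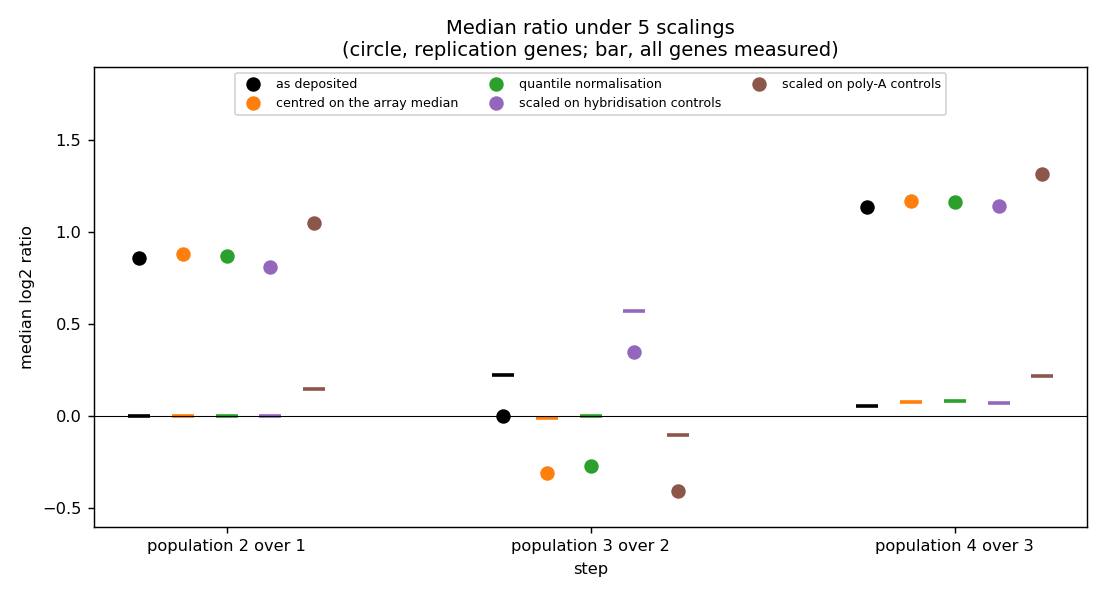
Median log2 ratio (vertical axis) at the 3 steps (horizontal axis) for the replication genes (circles) and for all genes measured (bars), with the signals as deposited and under 4 other scalings (colours), 1 array per population. At the outer steps circles lie well above the bars under each scaling, and at the step between populations 2 and 3 they run between -0.41 and 0.35 and below their bar each time.

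The study related dynamically expressed genes to Runx1 across the populations on both of its array platforms. Here all measured replication genes were set against Runx1 on the Affymetrix arrays alone, and 10 of 41 had a standard deviation of log2 signal above 1, where 14.6% of all genes did. Pearson's correlation of their log2 signals with those of Runx1 was above 0.8 in 39 of 41 replication genes and in 3882 of all 9468 genes, with a median of 0.91 and the lowest, 0.76, in Fen1. With 4 points that come from the same 4 arrays it is a description only. After centring of each array it was above 0.8 in 27 of 41 members and 19.6% of all genes, and on the hybridisation controls in 41 of 41 members and 51.6% of all genes. On the scale as deposited, Runx1 was 3.62-fold higher in population 3 than in population 2, where the replication genes were level. Both values move with the scaling of the arrays. The part of Runx1 in the replication gene result was not tested.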

How the data were processed

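Gene expression was measured in 4 sorted populations with 1 Affymetrix array each. Per the labels the authors made the deposited values, linear signal intensities of 45101 probe sets, with MAS5 in GCOS 1.3. The scaling target and any masking are not given in the sources used here, and an array has no count depth, so the number of arrays limits the precision. Of the probe sets, 34958 had 1 gene in the platform annotation, 932 several and 9211 none. Per gene the single-gene probe set of highest average log2 signal was kept, genes needed a signal above 100 in at least 1 population, signals were raised to 100, and log2 ratios were taken between populations with no test, since the table used here holds 1 array per population. A sample set on Agilent arrays was not analysed here. The calculation was tested on simulated data with planted ratios. Members and lists were chosen with earlier results of these data known. All members may be named. Signals were given for the highest, the lowest and the brightest member of each role and for further members, and of the other lists for the sort markers, Mki67 and the genes with the highest and lowest ratio. In all, 10 other settings of the scaling, the probe set, the floor and the minimum were tried. Promoters came from RefSeq (GRCm38.p6). The chromatin immunoprecipitation data of the series were not used here. Python 3.11.15, pandas 2.3.3, numpy 2.4.6 and matplotlib 3.10.9 were used.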

Additional observations from a re-analysis of the deposited data

How the results depend on the processing

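No paired analysis was possible because each population has 1 array and the labels give no replicate numbers. Leaving out a replicate was not possible for the same reason. With each array centred on its median, the median log2 ratio of replication genes was 1.70 for population 4 over population 1 and -0.31 for population 3 over population 2, and 5 genes in place of 20 were higher at every step. With quantile normalisation these values were 1.74, -0.27 and 5. Scaled on the hybridisation controls, they were 2.33, 0.35 and 39. On that scale 1 replication gene was at least 2-fold higher in population 3 against population 2, where 11.2% of all genes were. Scaled on the poly-A controls, the median was -0.41 for population 3 over population 2 and 1.32 for population 4 over population 3, and 3 genes were higher at every step. With no signal minimum, the median of replication genes minus that of all genes was 1.99 for population 4 over population 1 and -0.00020 for population 3 over population 2, because the genes added have no signal above the floor and a ratio of 0. The count of genes higher at every step therefore follows the scaling, and its share over all genes under the other scalings is not given here. Over these and the other settings of probe set, floor and minimum, 10 in all, the number of replication genes at least 2-fold higher lay between 34 and 41 for population 4 over population 1, between 12 and 22 for population 2 over population 1, and between 20 and 30 for population 4 over population 3, and none was 2-fold lower in any comparison. The genes counted were 41 under each scaling, 38 with the mean over probe sets, which gave the lowest counts, and 36 without probe sets of shared or alternative transcripts. Over the same settings the shares of all genes at least 2-fold higher ran between 11.7% and 34.6%, between 1.52% and 4.96%, and between 4.13% and 11.3% in these comparisons. The probe set shared by Tyms and its pseudogene, an alternative added after seeing the data, gave 41 genes at least 2-fold higher in population 4 against population 1. The correlations with Runx1 under other scalings were also added after seeing the data.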

Other observations

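The probe set that the annotation pairs with both Tyms and its pseudogene Tyms-ps gave signals of 619, 1205, 1297 and 1352 in populations 1 to 4. It was 2.19-fold higher in population 4 than in population 1, and 1.95-fold higher in population 2 than in population 1. It was 1.04-fold higher in population 4 than in population 3, where the 41 measured replication genes lay between 1.36-fold and 4.26-fold. Which of the pair its signal comes from was not tested.

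Within the nucleotide pathways some genes gained at the step to population 2 and little at the step to population 4, and these were picked after their values were seen. Cad, which starts pyrimidine synthesis, gave 422, 1125, 1133 and 1282 in populations 1 to 4. Shmt2 and Mthfd2, mitochondrial enzymes of folate metabolism, gave 1118, 2268, 2059 and 2087 and 1308, 2126, 1553 and 1697. Shmt1, the cytosolic relative of Shmt2, gave 177, 381, 337 and 886 and shared the 2-step shape of the replication genes. Rrm2b, the ribonucleotide reductase subunit that works outside S phase, gave 195, 175, 231 and 194. Its ratio of population 4 over population 1 was 0.99-fold, and that of its S phase counterpart Rrm2 was 5.01-fold.

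Of the regulators of S phase entry, 4 were also picked after their values were seen. E2f2 gave 45.2, 52.5, 187 and 540 in populations 1 to 4, and its signal passed 100 only in populations 3 and 4. Ccna2, the S phase cyclin, gave 419, 1534, 1378 and 3187, the 2-step shape of the replication genes. Ccne2, a cyclin of the entry into S phase, gave 115, 185, 265 and 967, likewise with its smallest ratio at the middle step. Rb1, which holds E2F factors back, gave 655, 464, 913 and 1263 and was lower in population 2 than in population 1.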
